A study of Homo sapiens with 8 samples.

Results

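The 37 genes described here encode enzymes, and proteins that serve them, for the breakdown of propionate, of 3-hydroxy acids and of the branched-chain amino acids leucine, isoleucine and valine. They were chosen by symbol for their place in these routes, and 36 of them have a row among the 30233 Ensembl genes of the deposited table. ALDH7A1 was not analysed here. RNA was sequenced from THP-1 cells (a human monocytic leukaemia line, labelled wild type) in 8 libraries. The 4 LPS + 3-HPA libraries came from cells given 100 ng/mL LPS (lipopolysaccharide, a bacterial activator of inflammatory genes) and 5 mM 3-HPA (3-hydroxypropionic acid) at the same time, according to the treatment protocol, although the series text calls it pretreatment. The 4 LPS libraries came from cells given 100 ng/mL LPS alone. All cells had first been turned into macrophage-like cells with the phorbol ester PMA (100 ng/ml, 24 h), followed by 24 h in which PMA was absent. The sources used here do not give how long LPS was present, and no group went without LPS. The model is a single cell line, and no label states that the libraries of a group came from separate cultures, so the spread behind each p-value may be technical only.

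Branched-chain amino acids first lose their amino group to a transaminase. The resulting keto acids are oxidised by a mitochondrial dehydrogenase complex, which a kinase switches off by phosphorylation and a phosphatase switches on again. The leucine carbon then runs through isovaleryl-CoA to acetyl-CoA and a ketone body, while isoleucine and valine yield propionyl-CoA. Propionyl-CoA is carboxylated with biotin and rearranged with vitamin B12 to succinyl-CoA, which enters the citric acid cycle. 3-Hydroxypropionate arises from propionyl-CoA by a side route in which a hydratase and a hydrolase of valine breakdown take part, and it can be oxidised through malonate semialdehyde. Macrophages are not a main site of these routes in the body, and 3-HPA is itself an intermediate of them.

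With 3-HPA, the largest change among the 29 genes tested was a fall of PPM1K, the phosphatase of the branched-chain dehydrogenase, to 0.589 times its level with LPS alone. By the same ratio of mean FPKM, the next largest called fall was that of ACAT1 (0.704), a thiolase of isoleucine and ketone body metabolism. MCCC1 (0.745) and IVD (0.764) of leucine breakdown came next, followed by ALDH6A1, DBT and MCCC2. On the log2 scale used below, the order of these genes differs. PCCA, the biotin-carrying subunit of propionyl-CoA carboxylase, rose 1.36-fold and BCKDK, the kinase of the dehydrogenase, rose 1.08-fold. On the route of valine and the 3-hydroxy acids, ECHS1 and ALDH6A1 were called lower, and ACAD8, HIBCH and HIBADH did not pass the test. The calls of ECHS1 and ALDH6A1 ended under TMM scaling (limma adjusted p = 0.149 and 0.0893). Of 29 members tested, 2 rose and 10 fell (41.4% called) at an adjusted p under 0.05, against 43.7% of all 12499 genes tested, so the share of members called lay near the background. Only 4 members fell under TMM scaling, 5 with no filter, and 6 without LPS + 3-HPA library 1 or without LPS library 3. Tests were made with limma on log2(FPKM + 1), in genes with at least 0.5 FPKM in at least 4 libraries, and p-values were adjusted by Benjamini-Hochberg over all genes tested. FPKM is fragments scaled by gene length and library depth, which allows levels of different genes to be compared. A log2 fold change below is LPS + 3-HPA minus LPS on log2(FPKM + 1), and on this scale changes of genes with low FPKM come out too small. The median log2 fold change was -0.10 over the tested members and -0.05 over all genes tested, and the members ranged between -0.61 and 0.26.

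The promoters of 4 called genes are shown. They are the phosphatase PPM1K beside the kinase BCKDK of the same dehydrogenase, and IVD beside MCCC1 at nearby steps of leucine breakdown. Each sequence runs 5′ to 3′ on the gene's own strand over 300 bases around the RefSeq start (GRCh38.p14), and capitals mark the GC box (GGGCGG) and the CCAAT box on either strand. PPM1K, whose window lies on the minus strand at chr4:88284512-88284811, holds 2 GC boxes.
PPM1K: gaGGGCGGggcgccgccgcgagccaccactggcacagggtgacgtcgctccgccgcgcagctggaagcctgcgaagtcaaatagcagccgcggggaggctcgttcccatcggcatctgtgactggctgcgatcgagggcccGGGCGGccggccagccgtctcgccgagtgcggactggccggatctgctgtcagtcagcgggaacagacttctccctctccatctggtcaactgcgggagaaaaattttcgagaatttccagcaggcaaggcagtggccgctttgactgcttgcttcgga
BCKDK, on the plus strand at chr16:31108136-31108435, holds 1 GC box.
BCKDK: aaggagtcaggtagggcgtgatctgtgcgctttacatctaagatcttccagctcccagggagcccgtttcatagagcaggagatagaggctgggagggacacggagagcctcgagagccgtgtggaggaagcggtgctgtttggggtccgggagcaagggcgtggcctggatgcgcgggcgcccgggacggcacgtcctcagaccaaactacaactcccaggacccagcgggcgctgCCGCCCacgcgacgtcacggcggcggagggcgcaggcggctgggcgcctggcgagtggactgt
IVD, on the plus strand at chr15:40405545-40405844, holds 1 GC box and 3 CCAAT boxes.
IVD: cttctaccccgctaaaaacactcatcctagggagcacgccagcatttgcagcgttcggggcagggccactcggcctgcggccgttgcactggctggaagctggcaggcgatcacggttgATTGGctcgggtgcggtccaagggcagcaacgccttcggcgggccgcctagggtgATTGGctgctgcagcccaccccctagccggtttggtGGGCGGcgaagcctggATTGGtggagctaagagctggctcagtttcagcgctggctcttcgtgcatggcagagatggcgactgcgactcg
MCCC1, on the minus strand at chr3:183099447-183099746, holds 2 CCAAT boxes.
MCCC1: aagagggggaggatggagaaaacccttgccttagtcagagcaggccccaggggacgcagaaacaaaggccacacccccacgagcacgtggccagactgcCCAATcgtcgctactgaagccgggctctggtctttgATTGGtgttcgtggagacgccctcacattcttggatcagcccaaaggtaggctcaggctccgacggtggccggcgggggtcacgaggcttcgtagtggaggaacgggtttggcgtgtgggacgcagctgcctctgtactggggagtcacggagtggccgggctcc
The matches within each window share 0 bases. RefSeq promoters were matched for 33 of the 37 genes. A GC box was found in 28 of these 33, against 45% of all 35116 promoters in the table, and a CCAAT box in 21, against 34.6%. A half-site of nuclear receptors (AAGGTCA) was found in 1 (3.92% of all promoters), a C/EBP-ATF element (TGATGNAAT) in 1 (0.991%) and the NRF1 motif in 3 (5.78%), all searched on both strands. A member was counted if any promoter listed for it held the motif, whereas the percentages count single promoters, so the units differ. These counts describe letters only, and the promoters of the table include those of non-coding genes.

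Depth, recovered from the steps of the FPKM values, lay between 35647756 and 41859879 reads per library. Whether the mates of a pair were counted once or separately is not stated, so a recovered read may be a fragment or a mate. Of 9 macrophage markers 8 passed the filter, among them SPI1, CSF1R and CD14, whereas CD68 was listed at a mean of 0.0677 FPKM. In GENCODE 29 CD68 overlaps another gene on the same strand, so its count is uncertain. The summed macrophage markers lay between 1373 and 1425 FPKM with 3-HPA and between 1069 and 1102 FPKM with LPS alone. A list of 3 fibroblast markers, nearly all COL1A1, summed to 4.08 to 4.57 FPKM with 3-HPA and 2.15 to 2.6 FPKM with LPS alone. A list of 2 endothelial markers, nearly all PECAM1, which monocytes also express, summed to 7.37 to 8.68 FPKM with 3-HPA and 3.76 to 4.34 FPKM with LPS alone. Their part in the results below was not tested. In bulk RNA, fewer cells expressing a gene and less RNA of it per cell cannot be told apart.

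The levels of the 36 genes spanned about 3 orders of magnitude and were dominated by few genes. MMADHC, BCAT1, BCKDK and ECHS1 averaged above 10 FPKM, 20 genes lay between 1 and 10 FPKM, and 12 lay under 1 FPKM. These 4 genes made up 73.8 to 73.9% of the members' summed FPKM with 3-HPA and 71.5 to 72.9% with LPS alone. The sum itself, as deposited, was 241 to 250 FPKM with 3-HPA and 256 to 263 FPKM with LPS alone, so the groups did not overlap. This gap depends on library scaling, and whether it remains under another scaling was not tested. Under TMM scaling the log2 fold change of MMADHC went from -0.04 to 0.03 and that of BCAT1 from -0.10 to -0.04. That of ECHS1 went from -0.15 to -0.09 and that of BCKDK from 0.11 to 0.17. For MCCC2, HSD17B10 and ALDH3A2 the gene length behind the FPKM was more than 2 times that of their exons in GENCODE 29, so their levels relative to other genes are uncertain. The length also moves their log2(FPKM + 1) differences and, for ALDH3A2, whether it passes the filter. The share of BCKDK was 11.3 to 11.6% with 3-HPA and 9.59 to 10.2% with LPS alone, while that of BCAT1 overlapped between the groups (24.9 to 26% and 25 to 25.9%).

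**Figure D1:**
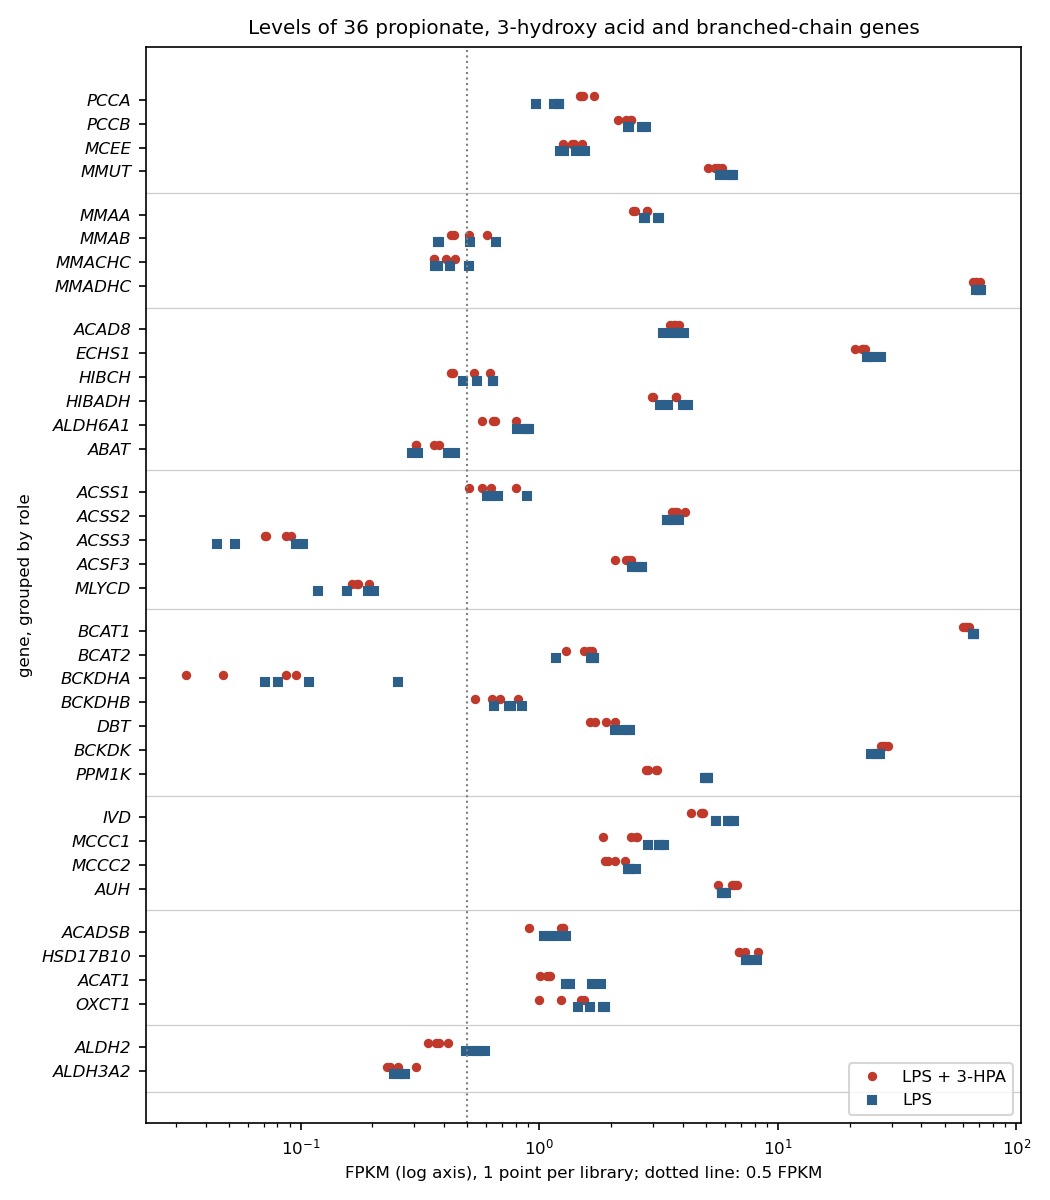
FPKM of the 36 genes on a log axis, 1 point per library, grouped by role from propionyl-CoA carboxylation at the top to aldehyde dehydrogenases at the bottom, with circles for LPS + 3-HPA and squares for LPS. The dotted line marks 0.5 FPKM, and the groups of PPM1K stand clearly apart (means of 2.97 FPKM with 3-HPA and 5.04 FPKM with LPS alone).

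In the step from propionyl-CoA to succinyl-CoA, PCCA rose, MMUT fell, and PCCB and MCEE did not pass. PCCA (ENSG00000175198, GRCh38 chromosome 13, 100089015 to 100530437, plus strand) had 1.7, 1.49, 1.52 and 1.48 FPKM in the LPS + 3-HPA libraries, against 1.21, 1.15, 0.966 and 1.21 FPKM in the LPS libraries. All libraries with 3-HPA lay above all those with LPS alone. Its log2 fold change was 0.26 (SE 0.0564, limma adjusted p = 0.00568), or 1.36-fold by the ratio of mean FPKM. PCCB encodes the partner subunit of the same enzyme and had 2.42, 2.31, 2.14 and 2.43 FPKM with 3-HPA, against 2.36, 2.7, 2.8 and 2.37 FPKM with LPS alone. These values overlapped, with a log2 fold change of -0.10 and a 95% interval from -0.22 to 0.03. The ratio of PCCA to PCCB within a library, which does not depend on library scaling, was 0.701, 0.645, 0.709 and 0.609 with 3-HPA, against 0.512, 0.428, 0.345 and 0.508 with LPS alone. The ratio was higher in 4 of 4 libraries with 3-HPA than in any LPS library (exact permutation test, two-sided, p = 0.0286, the smallest that 70 splits allow, adjusted p = 0.0857 over 6 ratios). It did not pass after adjustment. Even full separation could pass only if more of the 6 ratios also separated fully, so no conclusion is drawn from this. Of PCCB's exonic bases 22.1% overlap STAG1 on the opposite strand, and strand use in counting is not stated.

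MMUT, the B12-dependent mutase that makes succinyl-CoA, had 5.1, 5.45, 5.64 and 5.83 FPKM with 3-HPA, against 5.75, 6.35, 6.3 and 6.48 FPKM with LPS alone. The groups touched, since the highest library with 3-HPA lay above the lowest LPS library. The log2 fold change was -0.15 (SE 0.0466, limma adjusted p = 0.0273). The call ended without LPS + 3-HPA library 1 or 2 or LPS library 2, 3 or 4 (limma adjusted p 0.0588 to 0.0728) and under TMM scaling (adjusted p = 0.13). MCEE, the epimerase between carboxylase and mutase, held only 77 to 99 reads per library and had a 95% interval from -0.12 to 0.15.

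Of the vitamin B12 handling genes, limma called 0 of the 3 tested, against 43.7% of all genes tested. With 3 genes, no conclusion is drawn from this count. An unadjusted p under 0.05 was likewise reached by 0, and limma voom on the recovered reads called 0. MMADHC, which directs B12 towards its mitochondrial or cytosolic use, had 68, 70.7, 67.6 and 66.1 FPKM with 3-HPA, against 71.3, 68, 70.1 and 69.9 FPKM with LPS alone. It was the most abundant member, and its log2 fold change of -0.04 had a 95% interval from -0.09 to 0.02. With equal FPKM totals MMADHC was called lower (limma adjusted p = 0.0304), and 25.6% of its exonic bases overlap another gene on the opposite strand. MMAA, the chaperone that loads the mutase, had a mean of 2.66 ± 0.193 FPKM with 3-HPA and 2.97 ± 0.23 FPKM with LPS alone (SD, n = 4 each), with a 95% interval from -0.24 to 0.01. The ratio of MMAA to MMUT was 0.484 with 3-HPA and 0.476 with LPS alone (geometric means, exact permutation p = 0.857). MMAB, the adenosyltransferase that makes the mutase's cofactor, had an interval from -0.16 to 0.19. MMACHC, which processes B12 after uptake, lay below the filter with 68 to 107 reads per library and means of 0.394 FPKM with 3-HPA and 0.417 FPKM with LPS alone.

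On the route of valine and the 3-hydroxy acids, ECHS1 and ALDH6A1 fell, ACAD8, HIBCH and HIBADH did not pass, and ABAT lay below the filter. ECHS1, the hydratase that adds water to short enoyl-CoAs and acts on acryloyl-CoA and methacrylyl-CoA, had 21, 22.7, 23.1 and 22.5 FPKM with 3-HPA, against 23.6, 24.7, 27.2 and 24.3 FPKM with LPS alone. The groups did not overlap, though the gap was small, and the log2 fold change was -0.15 (SE 0.0454, limma adjusted p = 0.0249). The call ended without LPS + 3-HPA library 1 (limma adjusted p = 0.0614) and under TMM scaling (adjusted p = 0.149).

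HIBCH, the hydrolase that frees 3-hydroxyisobutyrate and 3-hydroxypropionate from CoA, had 0.435, 0.531, 0.427 and 0.622 FPKM with 3-HPA, against 0.479, 0.642, 0.642 and 0.551 FPKM with LPS alone. The groups overlapped widely, and the log2 fold change of -0.07 had a 95% interval from -0.22 to 0.08. HIBADH, which oxidises 3-hydroxyisobutyrate, had 3.74, 2.96, 3.76 and 3.01 FPKM with 3-HPA, against 3.48, 4.21, 3.22 and 3.99 FPKM with LPS alone. Its libraries also overlapped, with an interval from -0.32 to 0.09. ALDH6A1, which turns methylmalonate and malonate semialdehyde into propionyl-CoA and acetyl-CoA, had 0.797, 0.575, 0.638 and 0.65 FPKM with 3-HPA, against 0.806, 0.863, 0.887 and 0.905 FPKM with LPS alone. LPS + 3-HPA library 1 lay just under the lowest LPS library, and the other libraries with 3-HPA lay well under it.

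The log2 fold change of ALDH6A1 was -0.17 (SE 0.0568, limma adjusted p = 0.0425), and the ratio of means was 0.769. Its call ended when any library except LPS + 3-HPA library 1 was left out (limma adjusted p 0.0552 to 0.102) and under TMM scaling (adjusted p = 0.0893). It held 152 to 253 reads per library, and 10% of its exonic bases overlap BBOF1 on the opposite strand. ABAT, the transaminase that makes malonate semialdehyde from beta-alanine, had 0.304, 0.38, 0.306 and 0.364 FPKM with 3-HPA, against 0.31, 0.294, 0.442 and 0.413 FPKM with LPS alone. These groups overlapped, and without the filter the log2 fold change was -0.03 (limma adjusted p = 0.805). ACAD8, the isobutyryl-CoA dehydrogenase of valine breakdown, had a log2 fold change of 0.01 with an interval from -0.11 to 0.13.

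At the entry to branched-chain breakdown, BCAT1, DBT and PPM1K fell and BCKDK rose, while BCAT2 and BCKDHB did not pass. BCAT1, the cytosolic transaminase, had 61, 62.3, 59.9 and 63.5 FPKM with 3-HPA, against 66.1, 66.7, 66 and 66.3 FPKM with LPS alone. The LPS libraries lay within 1 FPKM of each other and above all libraries with 3-HPA, and the log2 fold change was -0.10 (SE 0.0196, limma adjusted p = 0.00265). This small change was not called under TMM scaling (log2 fold change -0.04, adjusted p = 0.173). BCAT2, the mitochondrial transaminase, averaged 1.53 ± 0.166 FPKM with 3-HPA and 1.55 ± 0.248 FPKM with LPS alone (SD, n = 4 each). The cytosolic gene was thus 40.6 times as abundant as the mitochondrial one with 3-HPA and 43.2 times with LPS alone (geometric means of the FPKM ratio, exact permutation p = 0.457).

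The kinase and the phosphatase of the dehydrogenase moved in opposite directions, though the rise of the kinase was small (1.08-fold). PPM1K (ENSG00000163644, GRCh38 chromosome 4, 88257620 to 88284769, minus strand) had 3.1, 3.12, 2.81 and 2.85 FPKM with 3-HPA, against 5.09, 4.97, 5.04 and 5.05 FPKM with LPS alone. The highest library with 3-HPA stayed far below the lowest LPS library. The log2 fold change was -0.61 (SE 0.0376, 95% interval from -0.69 to -0.52, limma adjusted p = 2.03e-06), and PPM1K was called in every alternative tried, with log2 fold changes between -0.76 and -0.55. It was also the only member that passed a test against a 1.2-fold change (adjusted p = 0.000137), which 8.69% of all genes tested passed. BCKDK (ENSG00000103507, GRCh38 chromosome 16, 31106107 to 31112791, plus strand) had 27.8, 29.1, 27.1 and 28 FPKM with 3-HPA, against 26.2, 24.7, 26.7 and 25.9 FPKM with LPS alone. Its groups were separate but close, with a log2 change of 0.11 (SE 0.03, limma adjusted p = 0.017). BCKDK did not pass with equal FPKM totals (limma adjusted p = 0.0776) or with the replicate number as a block (adjusted p = 0.0628).

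The ratio of BCKDK to PPM1K within a library was 8.96, 9.34, 9.65 and 9.83 with 3-HPA, against 5.16, 4.97, 5.3 and 5.13 with LPS alone. Every library with 3-HPA had a higher ratio than every LPS library, and the difference was 0.88 on the log2 scale. The exact permutation test gave p = 0.0286, the smallest that 4 against 4 libraries allow, and adjusted p = 0.0857 over 6 ratios. The ratio did not pass after adjustment. As for PCCA and PCCB, it could have passed only if more of the 6 ratios separated fully, so no conclusion is drawn from this.

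**Figure D2:**
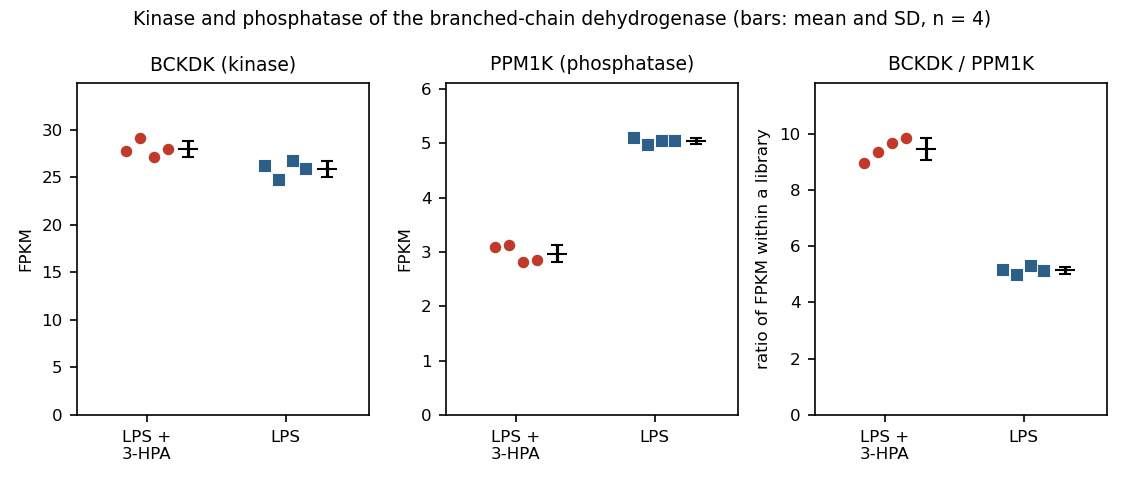
FPKM of BCKDK and of PPM1K and the ratio of both within each library, with 1 point per library, LPS + 3-HPA on the left and LPS on the right of each panel, and bars for the mean and SD (n = 4). BCKDK averaged 28 FPKM with 3-HPA and 25.9 FPKM with LPS alone, and the ratio lay between 8.96 and 9.83 with 3-HPA and between 4.97 and 5.3 with LPS alone.

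The subunits of the dehydrogenase itself were low. DBT, the transacylase core, had 1.63, 2.08, 1.71 and 1.9 FPKM with 3-HPA, against 2.35, 2.22, 2.4 and 2.07 FPKM with LPS alone. LPS + 3-HPA library 2 and LPS library 4 met in the middle, and the log2 fold change was -0.20 (SE 0.0608, limma adjusted p = 0.0234). The call ended without LPS + 3-HPA library 1 or 3 or LPS library 1 or 3 (limma adjusted p 0.0591 to 0.0626) and under TMM scaling (adjusted p = 0.0646). BCKDHB, one of the decarboxylase subunits, averaged 0.667 ± 0.116 FPKM with 3-HPA and 0.752 ± 0.0846 FPKM with LPS alone (SD, n = 4 each), with a 95% interval from -0.23 to 0.08. BCKDHA, its partner, lay below the filter with only 3 to 24 reads per library, 0.033 to 0.0953 FPKM with 3-HPA and 0.0711 to 0.255 FPKM with LPS alone. In GENCODE 29 another gene on the same strand shares 63.8% of BCKDHA's exonic bases, so its count is uncertain.

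In leucine breakdown after the dehydrogenase, IVD, MCCC1 and MCCC2 fell and AUH did not pass (3 of 4 called, median log2 fold change -0.24, against 43.7% called and a median of -0.05 over all genes tested). The count describes these 4 genes and was not tested against the other roles. IVD (ENSG00000128928, GRCh38 chromosome 15, 40405795 to 40435947, plus strand), the isovaleryl-CoA dehydrogenase, had 4.33, 4.86, 4.8 and 4.77 FPKM with 3-HPA, against 6.27, 6.21, 6.58 and 5.51 FPKM with LPS alone. The groups did not overlap, and the log2 fold change was -0.33 (SE 0.0529, limma adjusted p = 0.000993), a ratio of means of 0.764. MCCC1 (ENSG00000078070, GRCh38 chromosome 3, 183015218 to 183116075, minus strand), the biotin-carrying subunit of methylcrotonyl-CoA carboxylase, had 1.86, 2.56, 2.54 and 2.43 FPKM with 3-HPA, against 3.19, 3.21, 3.32 and 2.87 FPKM with LPS alone. LPS + 3-HPA library 1 was the lowest of all, yet the other libraries with 3-HPA also lay under every LPS library. The log2 fold change was -0.31 (SE 0.0755, limma adjusted p = 0.00876), a ratio of means of 0.745. The calls of IVD and MCCC1 held under each of the 4 scalings and without any single library.

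MCCC2, the partner subunit of MCCC1, had 1.95, 2.3, 1.89 and 2.08 FPKM with 3-HPA, against 2.38, 2.4, 2.54 and 2.35 FPKM with LPS alone. Its groups were separate by a narrow gap, with a log2 change of -0.16 (SE 0.0515, limma adjusted p = 0.0302). The call ended without LPS + 3-HPA library 1, 3 or 4 or LPS library 1, 2 or 3 (limma adjusted p 0.0541 to 0.0781) and under TMM scaling (adjusted p = 0.103). The ratio of MCCC1 to MCCC2 was 1.14 with 3-HPA and 1.3 with LPS alone (geometric means) and overlapped between the groups (exact permutation p = 0.143, adjusted p = 0.286 over 6 ratios). AUH, the hydratase that follows the carboxylase, had 6.56, 6.43, 5.62 and 6.77 FPKM with 3-HPA, against 6.04, 5.82, 5.82 and 5.89 FPKM with LPS alone. LPS + 3-HPA library 3 lay below all LPS libraries and the others above them, and the log2 fold change of 0.09 had a 95% interval from -0.02 to 0.20. Without that library (limma adjusted p = 0.00996), and under TMM scaling (0.15, adjusted p = 0.045), AUH was called higher.

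**Figure D3:**
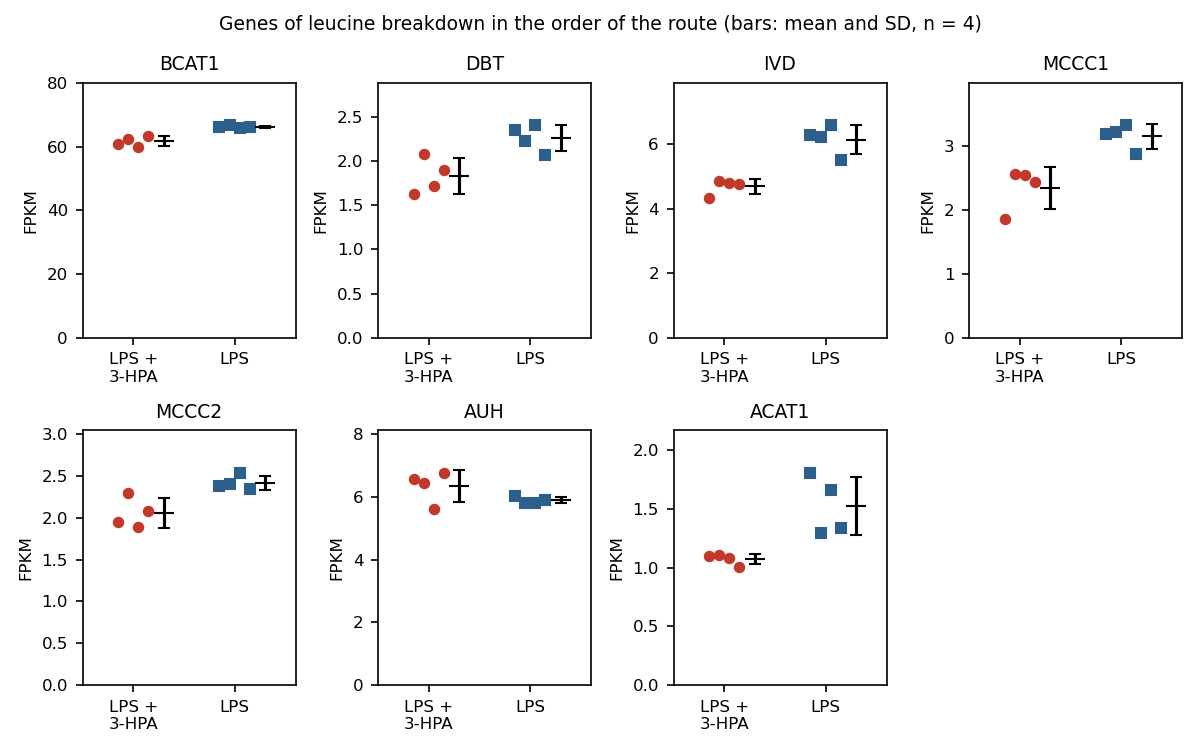
FPKM of 7 genes in the order of leucine breakdown, from transamination (BCAT1) to thiolysis (ACAT1), with 1 point per library, LPS + 3-HPA on the left and LPS on the right of each panel, and bars for the mean and SD (n = 4). BCAT2 and BCKDHB, which act at the first steps and did not pass, are not drawn, and neither is BCKDHA, below the filter. IVD averaged 4.69 FPKM with 3-HPA and 6.14 FPKM with LPS alone, whereas AUH averaged 6.34 FPKM with 3-HPA and 5.9 FPKM with LPS alone.

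Among genes of isoleucine breakdown and ketone body use, ACAT1 fell and ACADSB, HSD17B10 and OXCT1 did not pass. ACAT1 (ENSG00000075239, GRCh38 chromosome 11, 108121516 to 108147776, plus strand), the mitochondrial thiolase, had 1.1, 1.11, 1.08 and 1.01 FPKM with 3-HPA, against 1.81, 1.3, 1.66 and 1.34 FPKM with LPS alone. The libraries with 3-HPA lay close together and under all LPS libraries, which were spread more widely. The log2 fold change was -0.28 (SE 0.0712, limma adjusted p = 0.0117), a ratio of means of 0.704. OXCT1, which activates ketone bodies for use, had 1.24, 1.5, 0.999 and 1.54 FPKM with 3-HPA, against 1.63, 1.89, 1.86 and 1.46 FPKM with LPS alone. The groups overlapped at 1 LPS library, and the log2 fold change was -0.23 (95% interval from -0.43 to -0.03, limma adjusted p = 0.065). With equal FPKM totals OXCT1 was called lower (limma adjusted p = 0.0447), and likewise by limma voom on the recovered reads (adjusted p = 0.0359), without LPS library 4 (adjusted p = 0.0471) and without LPS + 3-HPA library 4 (adjusted p = 0.0461). ACADSB, the short branched-chain acyl-CoA dehydrogenase, averaged 1.16 FPKM in both groups (interval from -0.16 to 0.16). HSD17B10, the 3-hydroxyacyl-CoA dehydrogenase of isoleucine breakdown, had an interval from -0.18 to 0.08.

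Of the short-chain acyl-CoA synthetases, limma called 0 of the 3 tested, against 43.7% of all genes tested, and 3 genes allow no conclusion. An unadjusted p under 0.05 was reached by 1, and limma voom on the recovered reads called 1. ACSF3, which activates malonate, had 2.07, 2.32, 2.37 and 2.42 FPKM with 3-HPA, against 2.71, 2.69, 2.55 and 2.45 FPKM with LPS alone. The groups did not overlap, but the log2 fold change of -0.13 had an adjusted p of 0.06 by limma. It was called lower with equal FPKM totals (adjusted p = 0.0305), by limma without a trend (adjusted p = 0.0415) and by limma voom on the recovered reads (adjusted p = 0.0136). ACSS2, which activates acetate in cytosol and nucleus, averaged 3.8 ± 0.217 FPKM with 3-HPA and 3.6 ± 0.2 FPKM with LPS alone (SD, n = 4 each), with an interval from -0.05 to 0.17. Its mitochondrial counterpart ACSS1 averaged 0.629 ± 0.125 FPKM with 3-HPA and 0.701 ± 0.131 FPKM with LPS alone (SD, n = 4 each), with an interval from -0.24 to 0.11. ACSS3, a mitochondrial synthetase that acts on propionate, and MLYCD, malonyl-CoA decarboxylase, lay below the filter at means of 0.0801 and 0.176 FPKM with 3-HPA and 0.074 and 0.168 FPKM with LPS alone.

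The aldehyde dehydrogenases of the set also lay below the filter. ALDH2, the mitochondrial enzyme known for acetaldehyde oxidation, had 0.416, 0.369, 0.381 and 0.342 FPKM with 3-HPA, against 0.546, 0.493, 0.551 and 0.592 FPKM with LPS alone. Its groups did not overlap, with 124 to 241 reads per library and a ratio of means of 0.691. With no filter on low values, its log2 fold change was -0.17 and did not pass (limma adjusted p = 0.0576). Of its exonic bases, 7% lie under another gene on the same strand. ALDH3A2, which oxidises fatty aldehydes, averaged 0.257 ± 0.034 FPKM with 3-HPA and 0.262 ± 0.013 FPKM with LPS alone (SD, n = 4 each), and the groups overlapped.

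**Figure D4:**
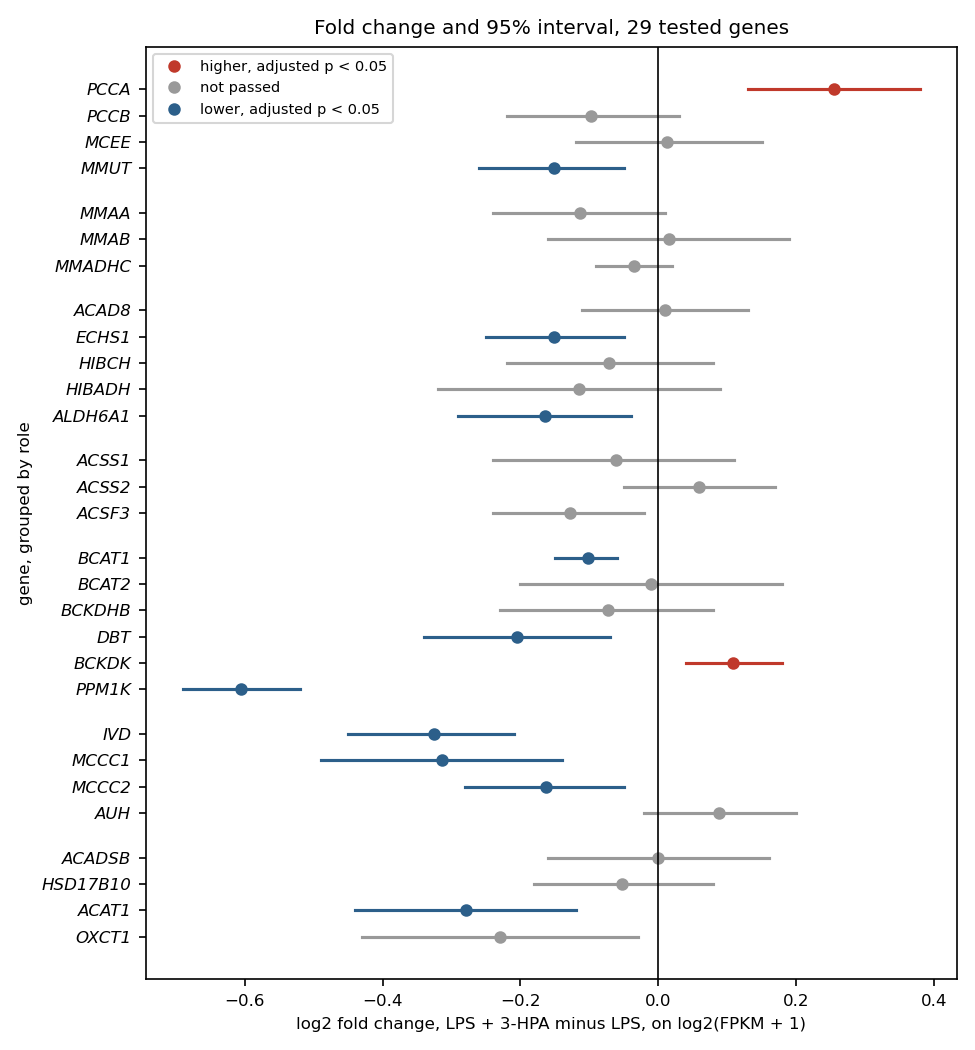
Log2 fold change (LPS + 3-HPA minus LPS, on log2(FPKM + 1)) with its 95% interval for the 29 genes tested, grouped by role, coloured by whether the adjusted p is under 0.05. The lowest value is that of PPM1K (-0.61) and the highest that of PCCA (0.26).

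How many members fell rests on the scaling of the libraries. As deposited, 2 rose and 10 fell. TMM scaling gave 3 higher and 4 lower, quantile normalisation 2 and 6, and equal FPKM totals 1 and 13. Over all genes tested, 15.7% rose and 28.0% fell as deposited, and the share of higher among called genes was 36% as deposited, 52.2% under TMM, 46.3% after quantile normalisation and 28.5% with equal totals. The falls of PPM1K, IVD, MCCC1 and ACAT1 and the rise of PCCA were called under all 4 scalings. The groups did not overlap in 11 of the 29 tested members, against 42.2% of all genes tested.

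**Figure D5:**
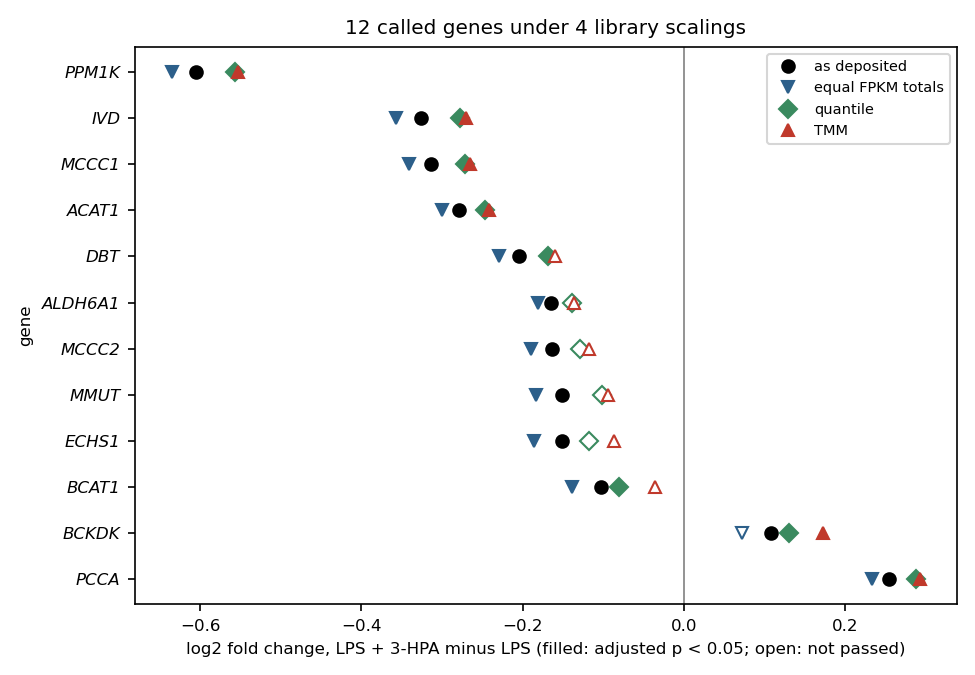
Log2 fold change (LPS + 3-HPA minus LPS) of the 12 called genes under 4 library scalings, with filled symbols for an adjusted p under 0.05 and open symbols otherwise. PPM1K stays between -0.64 and -0.55, and BCAT1 lies between -0.14 with equal FPKM totals and -0.04 under TMM.

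Genes of connected steps were taken from 10 lists of textbook roles, 74 genes in all, of which 51 were tested: 6 rose and 18 fell (47.1% called, against 43.7% of all genes tested), with a median log2 fold change of -0.06. Under TMM scaling 10 of them were higher and 9 lower. Of 6 genes for branched-chain amino acid transport, 1 rose and 2 fell. SLC7A5 and SLC3A2 form the large neutral amino acid exchanger LAT1. SLC7A5 had 114, 117, 119 and 117 FPKM with 3-HPA, against 137, 147, 141 and 148 FPKM with LPS alone (log2 fold change -0.29, SE 0.0264, limma adjusted p = 2.48e-05). SLC3A2 had 137, 137, 137 and 138 FPKM with 3-HPA, against 167, 164, 171 and 164 FPKM with LPS alone (-0.28, SE 0.0151, limma adjusted p = 8.35e-07). SLC7A8, the related exchanger LAT2, had 2.13, 2.34, 2.14 and 1.85 FPKM with 3-HPA, against 0.805, 0.882, 0.989 and 0.909 FPKM with LPS alone. It rose by 0.71 on the log2 scale (SE 0.0598, limma adjusted p = 1.44e-05), and all 3 transporter calls held under each scaling and without any single library.

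The counts per list stand beside 43.7% called over all genes tested, and no list was tested against that share. Among biotin-dependent genes 1 of 4 rose and 1 fell. PC, pyruvate carboxylase, had 2.15, 2.29, 2.61 and 2.23 FPKM with 3-HPA, against 1.37, 1.41, 1.37 and 1.35 FPKM with LPS alone (log2 fold change 0.48, limma adjusted p = 6.84e-05), and HLCS, which attaches biotin to carboxylases, fell by 0.17 on the log2 scale (adjusted p = 0.0211). Among ketone body genes OXCT2, a second ketone-activating transferase, rose and had 1.2, 1.22, 1.26 and 1.15 FPKM with 3-HPA, against 0.745, 0.783, 0.584 and 0.746 FPKM with LPS alone (0.36, limma adjusted p = 0.000597). Of 3 pyrimidine and beta-alanine genes, 2 rose: DPYD, the first enzyme of uracil breakdown (0.27, limma adjusted p = 2.02e-05), and CSAD, a decarboxylase of taurine synthesis (0.27, adjusted p = 0.00472). Of 5 genes for B12 uptake and methionine synthesis, 2 fell: MTRR, which reactivates methionine synthase (-0.21, limma adjusted p = 0.000106), and MTR, the synthase (-0.16, adjusted p = 0.0364).

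Of 8 other aldehyde dehydrogenases, 4 fell (50% called, against 43.7% of all genes tested). The counts of this and the following lists were likewise not tested against that share. Among the 4 were ALDH1L2 of mitochondrial folate metabolism (-0.39, limma adjusted p = 6.03e-05), ALDH1B1, a mitochondrial relative of ALDH2 (-0.44, adjusted p = 0.00024), and ALDH18A1 of proline synthesis (-0.21, adjusted p = 0.0223). Of 8 genes for acyl-CoA dehydrogenation and electron transfer, 1 rose and 3 fell. The falls were those of HADHB (-0.16, limma adjusted p = 0.00567) and HADHA (-0.11, adjusted p = 0.0155) of the trifunctional protein, and ACADM, the medium-chain dehydrogenase (-0.15, adjusted p = 0.00934). Of 4 genes for succinyl-CoA and acyl-CoA proofreading, 2 fell: ECHDC1, which removes wrongly made ethylmalonyl-CoA (-0.17, limma adjusted p = 0.00327), and SUCLG2, a succinyl-CoA synthetase subunit (-0.25, adjusted p = 0.0276). Of 4 genes for lysine and tryptophan breakdown, 2 fell: OGDH, the decarboxylase subunit of the oxoglutarate dehydrogenase (-0.13, limma adjusted p = 0.0016), and GCDH, glutaryl-CoA dehydrogenase (-0.26, adjusted p = 0.0423). Of 5 genes for the shared lipoamide dehydrogenase and lipoylation, 1 fell, DLD, the subunit that the branched-chain dehydrogenase shares with other complexes (-0.14, limma adjusted p = 0.0109). Among the genes named in these lists, TMM scaling ended the calls of DLD, HLCS, MTR, ALDH18A1, HADHB, HADHA, SUCLG2 and GCDH (limma adjusted p 0.0501 to 0.287). Leaving out 1 library ended those of HLCS (LPS library 1 or 4), MTR (6 libraries in turn), ALDH18A1 (3), SUCLG2 (5) and GCDH (7), with limma adjusted p between 0.0527 and 0.0947.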

How the data were processed

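RNA from 8 THP-1 libraries was measured by RNA-seq, 4 with LPS + 3-HPA and 4 with LPS alone. The submitters' processing notes name fastp 0.22.0, HISAT2 2.1.0, featureCounts and the build GRCh38. The sources used here do not give the annotation release, the strand setting or the length of exposure. The authors deposited FPKM values per Ensembl gene in 1 table of 30233 genes, and genes at 0 in every library have no row in it. Reads were recovered as whole multiples of the step of each gene's FPKM (tolerance 0.001 reads), using exon lengths of GENCODE 29 for 13256 genes and lengths found by search for 16973, while 4 genes had no length found. A read or a fragment is not marked by a molecular identifier, so counts of reads give counting error only.

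Genes with at least 0.5 FPKM in at least 4 libraries (12499) were tested with limma 3.58.1 in R 4.3.3, with a mean-variance trend, on log2(FPKM + 1), two-sided, with Benjamini-Hochberg adjustment and a threshold of 0.05. The script was tested on simulated data. Ratios of 6 gene pairs were tested by exact permutation over 70 splits, and 2 listed pairs with a member under 0.5 FPKM in some library were not. Members are all named. Of connected genes, up to 3 per list with the smallest p among those called are named. 1 gene of these lists is not reported here, though the counts over all lists include it. The members and lists were chosen with earlier results of these data known. Gene symbols were matched by Ensembl ID to GENCODE 29. Alternatives were other pseudocounts and filters, equal FPKM totals, TMM and quantile scaling, no trend, array weights, the replicate number as a block, a test against 1.2-fold, limma voom on recovered reads, and leaving out each library. Correlations of same-numbered libraries were low (-0.0231 to 0.0894, against -0.056 to 0.0763 for different numbers), and the main model has no block.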

Additional observations from a re-analysis of the deposited data

Results flagged for a closer look

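In 3 of the 72 sets of 4 libraries examined (each of the 36 genes in each group), 1 library stood apart from the other 3 by more than Dixon's critical value at 95% allows, and chance alone marks about 5% of such sets. BCAT2, the mitochondrial transaminase, was at 1.18 FPKM in LPS library 4, against 1.65 to 1.69 FPKM in the other LPS libraries. IVD was at 4.33 FPKM in LPS + 3-HPA library 1, against 4.77 to 4.86 FPKM in the others of its group, and its call held without that library. ACADSB was at 0.903 FPKM in LPS + 3-HPA library 4, against 1.23 to 1.26 FPKM in the others of its group, and the gene was not called.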

How the results depend on the processing

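The falls of PPM1K, IVD, MCCC1 and ACAT1 and the rise of PCCA kept their call under every alternative except the test against 1.2-fold, which called 1 member lower (PPM1K), 0 higher, 2 connected genes higher, 0 lower, and 1086 genes in all. As reported, 10 members fell and 2 rose. The members lower were 5 with no filter, 4 under TMM scaling and 6 after quantile normalisation, and the members higher were 1 with equal FPKM totals. The connected genes, 6 higher and 18 lower as reported, became 10 and 9 under TMM scaling, and 11 higher after quantile normalisation. Leaving out 1 library at a time gave 6 to 9 members lower and 2 to 3 higher. The cause of these shifts was not tested. With the replicate number as a block, 5074 genes were called, 1 member rose and 7 fell, and 6 connected genes rose and 13 fell. The block ended the calls of BCKDK, DBT, MCCC2 and ALDH6A1 (limma adjusted p 0.0628 to 0.0969). Correlations of same-numbered libraries lay between -0.0231 and 0.0894, and those of different numbers between -0.056 and 0.0763. Whether the numbers pair the libraries is not settled by these values. The 7 members below the filter held 3 to 241 reads per library, which overlaps the tested MCEE (77 to 99), so gene length as well as depth sets which members were tested.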
